A study of Mus musculus with 8 samples.

Results

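The organic anion and cation transporters of the kidney cortex were examined as 50 genes out of 19938 measured. They comprised 23 genes of the Slc22 family, 15 of the Slco family, 2 of the Slc47 family and 10 of the Abcc family. A gene was a member when its symbol belonged to one of these families and a probe set carried that symbol alone. The families themselves were chosen with earlier results of these data known. Each of the 50 members had 1 such probe set. A further probe set that carried 3 Slc22 symbols at once was left out.

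Total RNA of dissected renal cortex was hybridised to 1-colour Affymetrix arrays, 4 per genotype. The array labels give genotype and a replicate number and do not identify single mice. The 4 control arrays came from wild-type mice and the other 4 from littermates with a knockout of Stk39, the gene of the kinase SPAK. All mice were males of strain C57Bl6J aged 10 weeks that ate feed with 0.32% NaCl and 1% KCl. The study asked which genes might jointly limit salt loss by the kidney without SPAK. Which part of Stk39 was disrupted, and whether all cells carried the disruption, was not given in the sources used here.

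Proximal tubule cells clear drugs, toxins and metabolites from blood into urine in sequence, with uptake across the basolateral membrane and exit across the apical membrane. Members of the Slc22 family take up organic anions and cations or carnitine, and several of them exchange an anion for intracellular 2-oxoglutarate. Slco genes encode organic anion transporting polypeptides, which carry bile salts, hormones and conjugates. Slc47 genes encode proton-coupled exporters of cations, and most Abcc genes encode ATP-driven exporters of conjugated anions, while Abcc8 and Abcc9 encode regulatory subunits of potassium channels.

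Values are log2 RMA expression values, in which a step of 1 is a 2-fold change of signal, and differences are SPAK KO minus WT. Calls are genes with a limma adjusted p (Benjamini-Hochberg, over all 19938 genes) under 0.05. Stk39 itself read 8.11 to 8.60 in WT and 6.79 to 7.21 in SPAK KO. Proximal tubule signal was visible in 7 markers of the convoluted part, whose mean was 12.50 to 12.51 in WT and 12.49 to 12.50 in SPAK KO. The 4 SPAK KO arrays resembled each other more than most WT arrays did. A pair of SPAK KO arrays differed by over 0.4 at 1 to 10 of the 6297 genes whose mean exceeded 8, and 5 WT pairs did so at 119 to 228. The remaining pair, WT 2 and WT 3, differed at 3 genes, so these arrays were counted as 1 sample in WT means (n = 3), and SPAK KO levels are given per array with no SD. The adjusted p-values therefore rest partly on a spread between arrays that may be technical.

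Among the 50 members 3 were called higher and 1 lower in SPAK KO, and 46 were not called. The 3 higher genes were Slc22a13, Slc22a26 and Slco4c1, and the lower gene was Slco1a1. The calls made up 6% and 2% of the members, while 1.39% of all genes were called higher and 0.682% lower. These shares rest on few genes, in families chosen with earlier results of these data known. At an unadjusted p under 0.05 limma had 15 of the 50 members (30.0%) and 3806 of all genes (19.1%). The median difference was −0.013 over the members and −0.013 over all genes, with 24 members above 0 and 26 below. With genes whose mean was under 6 left out, the medians were 0.064 over the 32 remaining members and 0.020 over all remaining genes. The extremes were −0.62 and 0.88. In bulk cortex, a change in the number of cells of a type and a change in RNA per cell cannot be told apart.

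**Figure D1:**
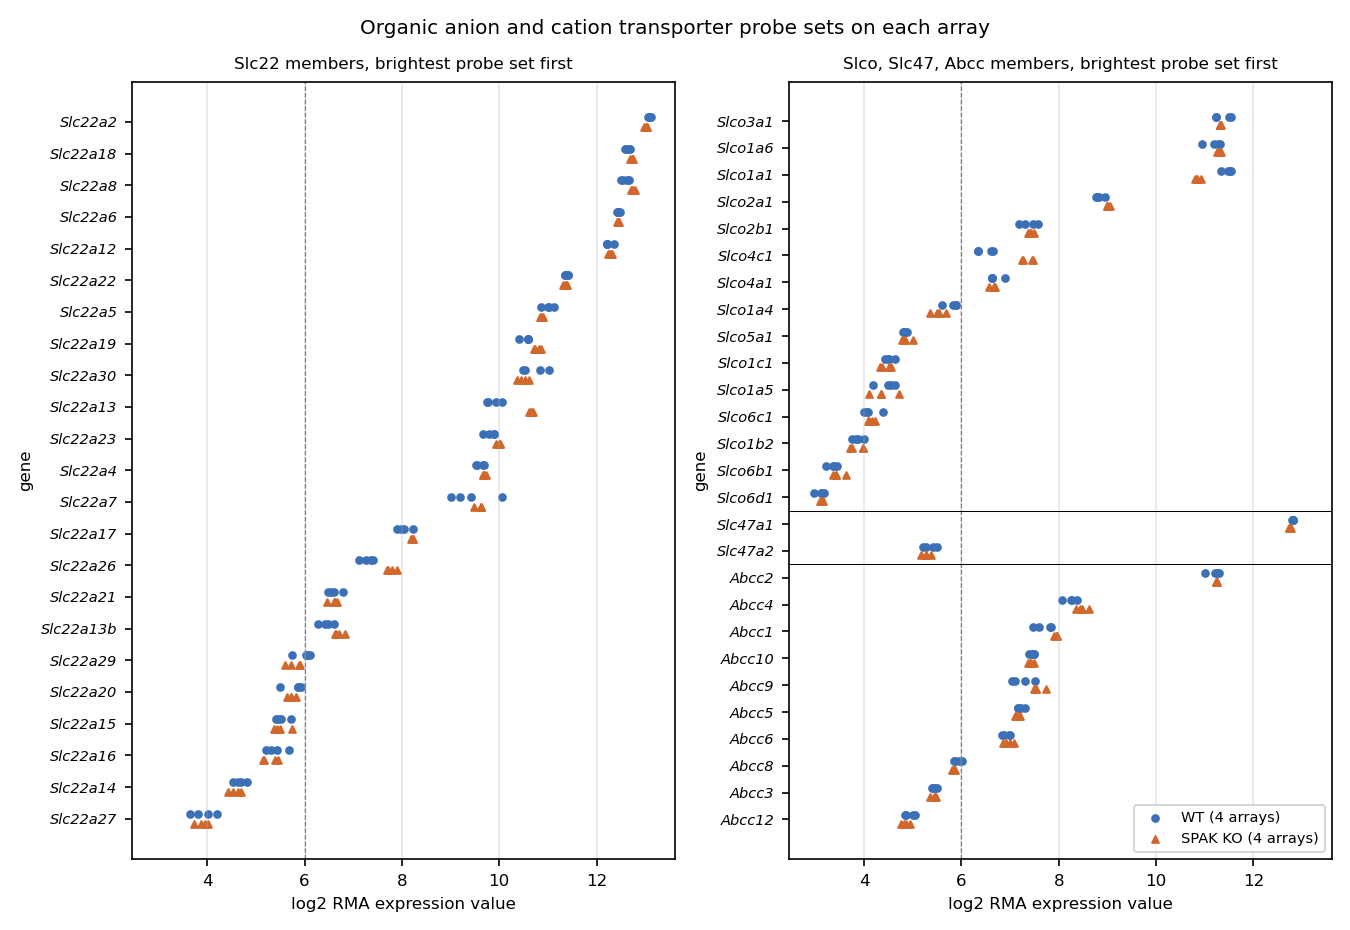
Log2 RMA expression value (x axis) of each of the 50 members (y axis) on every array, with WT as blue circles and SPAK KO as orange triangles, ordered by family and brightness. The dashed line marks a value of 6; 18 members have a mean below it, and the groups separate clearly at Slc22a13, Slc22a26, Slco4c1 and Slco1a1.

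Slc22a13 encodes a transporter of urate and nicotinate that acts in exchange for other organic anions. WT arrays 1 to 4 read 10.05, 9.75, 9.76 and 9.94, and SPAK KO arrays 1 to 4 read 10.70, 10.64, 10.62 and 10.66 (log2, probe set 10597612). Every SPAK KO array lay above every WT array, and the gap between the groups was 0.567. The WT level was 9.92 ± 0.15 (SD, n = 3). The gene rose by 0.78 ± 0.07 (SE, 8 arrays), or 1.72-fold, with a limma adjusted p of 0.00115.

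Slco4c1 encodes the organic anion transporting polypeptide of the basolateral membrane of the proximal tubule, which carries digoxin and thyroid hormone. Its probe set, 10356886, gave 6.33, 6.34, 6.60 and 6.65 for WT, by array number. The SPAK KO values, in the same order, were 7.26, 7.25, 7.46 and 7.48. The groups were apart by 0.600, more than the range within either group. From 6.48 ± 0.16 in WT (SD, n = 3), it rose by 0.88 ± 0.09 (SE, 8 arrays; 1.84-fold; limma adjusted p = 0.00178), the largest difference among the members.

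Slc22a26 is a rodent gene of the organic anion transporter cluster. In replicate order, WT read 7.36, 7.40, 7.27 and 7.12 and SPAK KO read 7.79, 7.70, 7.72 and 7.89 (probe set 10465726). The groups did not overlap. The rise was 0.49 ± 0.07 (SE, 8 arrays; 1.40-fold; limma adjusted p = 0.0090), from 7.27 ± 0.13 in WT (SD, n = 3).

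Slco1a1, an apical transporter of sulphated steroids and other anions whose expression in mouse kidney depends on androgen, was the only member called lower. With probe set 10548978 its signal was 11.34, 11.52, 11.49 and 11.55 for WT, by array number. For SPAK KO the values were 10.81, 10.85, 10.85 and 10.93. The lowest WT array stood 0.413 above the highest SPAK KO array. It fell by 0.62 on the log2 scale, with an SE of 0.06 over 8 arrays and a limma adjusted p of 0.00124, from 11.47 ± 0.11 in WT (SD, n = 3). The WT signal was thus 1.53-fold that of SPAK KO.

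Each of the 4 called members passed in all 8 leave-one-out fits, each without 1 array, and in these and the other settings the sign of the difference was kept. When arrays that agree were counted once, which leaves 3 WT samples and 1 SPAK KO sample, limma called 0 members and 0 genes. In that fit 4 members and 618 genes had an unadjusted p under 0.05, and the differences were 0.74 for Slc22a13, 0.88 for Slco4c1, 0.50 for Slc22a26 and −0.61 for Slco1a1. With each array centred on its median, 6 members were called higher and 1 lower, and the share of calls that were higher among all genes was 88.4% instead of 67.1%.

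**Figure D2:**
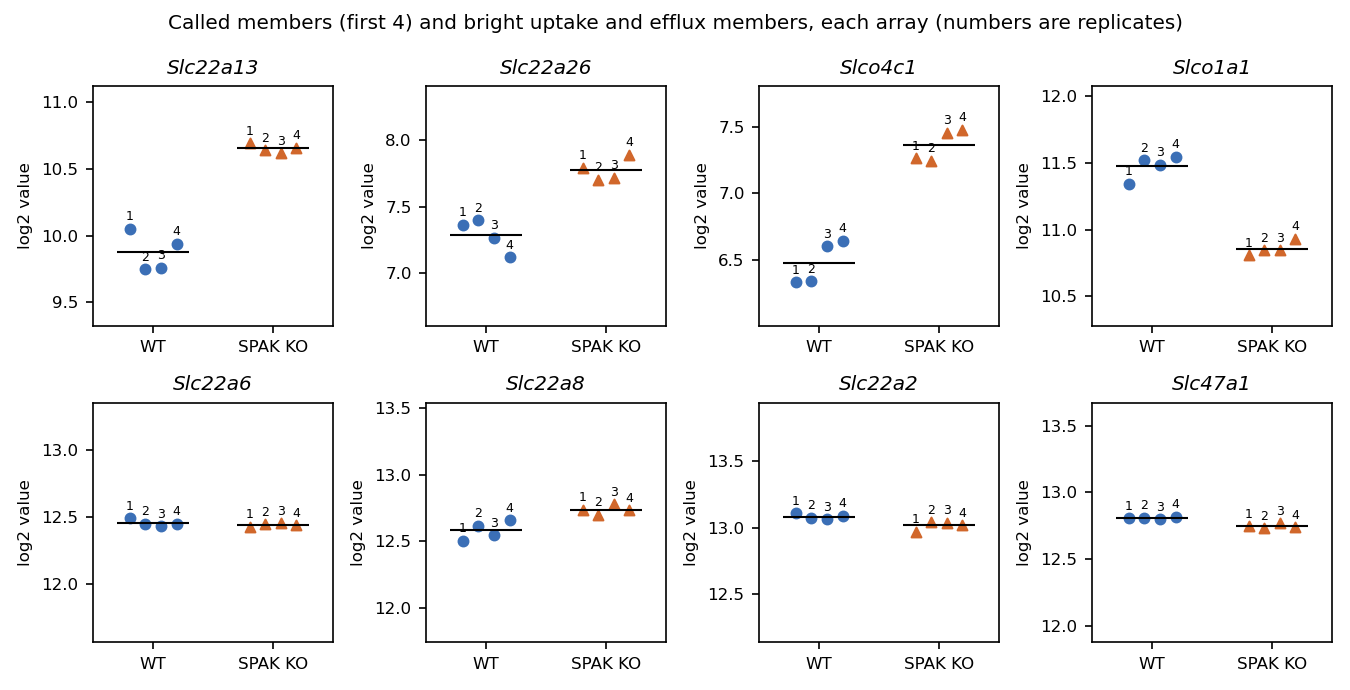
Log2 RMA expression value (y axis, with the same span in all panels) by genotype on each array, with replicate numbers beside the points and black lines at the mean of 4 arrays. The upper row shows the 4 called members, whose groups are apart by 0.304 to 0.600, and the lower row shows Slc22a6, Slc22a8, Slc22a2 and Slc47a1, where the groups are close or overlap.

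The upstream sequences are shown for the 4 called members only. Each is the 250 bases before the gene's start in RefSeq, build GRCm38.p6, read 5′ to 3′ on the gene's strand, with motif matches in capitals.

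Slc22a13 (chr9:119209106-119209355, minus strand): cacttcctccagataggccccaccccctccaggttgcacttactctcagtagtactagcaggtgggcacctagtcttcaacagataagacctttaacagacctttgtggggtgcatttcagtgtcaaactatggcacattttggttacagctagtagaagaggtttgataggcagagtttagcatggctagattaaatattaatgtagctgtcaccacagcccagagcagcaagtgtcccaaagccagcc

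Slco4c1 (chr1:96872172-96872421, minus strand): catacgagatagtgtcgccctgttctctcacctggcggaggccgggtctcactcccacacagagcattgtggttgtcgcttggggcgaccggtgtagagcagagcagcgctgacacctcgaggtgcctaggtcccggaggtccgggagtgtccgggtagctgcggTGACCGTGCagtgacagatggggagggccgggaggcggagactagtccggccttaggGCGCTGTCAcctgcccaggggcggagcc

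Slc22a26 (chr19:7802668-7802917, minus strand): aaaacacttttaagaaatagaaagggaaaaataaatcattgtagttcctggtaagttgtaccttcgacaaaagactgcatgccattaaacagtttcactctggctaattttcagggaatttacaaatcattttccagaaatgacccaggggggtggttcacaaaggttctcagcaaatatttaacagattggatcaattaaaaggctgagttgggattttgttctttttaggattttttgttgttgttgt

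Slco1a1 (chr6:141946963-141947212, minus strand): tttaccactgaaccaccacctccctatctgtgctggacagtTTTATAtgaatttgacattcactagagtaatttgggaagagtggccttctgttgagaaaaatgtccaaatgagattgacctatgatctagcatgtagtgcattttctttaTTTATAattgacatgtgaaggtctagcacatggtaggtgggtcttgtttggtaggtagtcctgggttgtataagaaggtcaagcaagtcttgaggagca

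Motifs were searched as exact letters on both strands of these windows: GTTAATNAT for HNF1 and CAAAGTCCA for HNF4, which are factors of the proximal tubule, TGACNNNGC for the antioxidant response element, and TATAAA for the TATA box. RefSeq windows were matched for 40 of the 50 members, 47 windows in all. Slco4c1 held the antioxidant response element letters at 85 to 77 and, on the other strand, at 28 to 20 bases before the start. Slco1a1 held the TATA letters on the opposite strand at 209 to 204 and 99 to 94 bases before the start. The windows of Slc22a13 and Slc22a26 held none of the 4 motifs. Across members, 9 of 47 windows (19.1%) held the antioxidant response element letters, against 10.2% of all 32851 windows. HNF1 letters were found in 2 of 47 windows, those of Slc22a29 and Slco1b2, against 0.737% of all windows, and HNF4 letters in 0 against 0.384%. TATA letters were in 12.8% of member windows and 12.4% of all. Such matches are descriptions of letters and not of bound sites.

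None of the basolateral uptake transporters OAT1, OAT3 and OCT2 was called. Slc22a6, the organic anion transporter OAT1, read 12.49, 12.45, 12.43 and 12.45 in WT and 12.43, 12.45, 12.45 and 12.44 in SPAK KO. The groups overlapped and SPAK KO minus WT was −0.015 ± 0.043 (limma adjusted p = 0.880), which became 0.044 when arrays were centred on their median. Slc22a8, the related transporter OAT3, read 12.51, 12.62, 12.55 and 12.66 in WT and 12.74, 12.70, 12.78 and 12.73 in SPAK KO. All SPAK KO arrays were higher, by 0.16 ± 0.05, but the gene did not pass over all genes (limma adjusted p = 0.142). It passed with trend and robust moderation of the variances (adjusted p = 0.0316).

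Slc22a2, the organic cation transporter OCT2, had the brightest probe set of the members. It read 13.11, 13.08, 13.06 and 13.09 in WT and 12.97, 13.04, 13.04 and 13.02 in SPAK KO. Groups did not overlap, yet the difference of −0.07 ± 0.04 did not pass (limma adjusted p = 0.437). Slc47a1, the apical exporter MATE1 that completes the secretion of cations, read 12.81, 12.81, 12.80 and 12.82 in WT and 12.74, 12.73, 12.77 and 12.74 in SPAK KO. Its difference of −0.06 ± 0.04 was again small and not called (limma adjusted p = 0.447). Slc47a2, whose product MATE2 is mainly a testis protein in mice, was dim at 5.17 to 5.50 on the 8 arrays and differed by −0.08 ± 0.07.

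Slc22a7, the organic anion transporter OAT2, which in mouse kidney lies in the apical membrane, was not called and varied most among WT arrays. WT arrays 1 to 4 read 10.05, 9.19, 9.01 and 9.42, whereas SPAK KO arrays 1 to 4 read 9.62, 9.63, 9.62 and 9.48. The WT range of 1.04 was the widest of all members, while the SPAK KO arrays spanned 0.152 inside it. The difference was 0.17 ± 0.18 (limma adjusted p = 0.639). It was 0.38 without WT 1 (adjusted p = 0.0807) and 0.035 without WT 3 (adjusted p = 0.928). WT 1 was the highest WT array for 25 of the 50 members, Slc22a7 among them, and the lowest for 12. The median of WT 1 over all probe sets, 6.19, was also the highest of the arrays. The WT range exceeded the SPAK KO range for 38 of 50 members, with medians of 0.281 and 0.132. Over all genes it did so for 12761 of 19938, with medians of 0.224 and 0.173.

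Among apical urate and anion transporters of the Slc22 family, Slc22a12, the urate transporter URAT1, read 12.21 to 12.36 in WT and 12.24 to 12.31 in SPAK KO, a difference of 0.03 ± 0.05. Slc22a19, which encodes the apical transporter OAT5, read 10.58, 10.59, 10.60 and 10.41 in WT and 10.72, 10.85, 10.74 and 10.82 in SPAK KO. The groups were apart by 0.120, and the difference of 0.24 ± 0.06 missed the threshold over all genes (limma adjusted p = 0.0806). It passed when arrays were centred on their median (0.0324), when genes with a mean under 6 were left out (0.0393) and with trend and robust moderation (0.0187). Slc22a22, a prostaglandin-specific anion transporter of the kidney, differed by −0.03 ± 0.04, and by 0.03 when arrays were centred on their median.

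The carnitine transporter Slc22a5, OCTN2, read 11.12, 11.03, 11.00 and 10.85 in WT and 10.85, 10.91, 10.85 and 10.85 in SPAK KO. WT 4 lay among the SPAK KO arrays, and the difference of −0.14 ± 0.06 did not pass (limma adjusted p = 0.251). Its neighbours in the genome, Slc22a4 and Slc22a21, which encode related transporters of this subgroup, differed by 0.08 ± 0.05 and −0.02 ± 0.07. The orphan members Slc22a18 and Slc22a23 differed by 0.08 ± 0.05 and 0.18 ± 0.06, and only the latter had groups that did not overlap, at 9.66 to 9.90 in WT and 9.94 to 10.02 in SPAK KO. Slc22a17, the gene of a lipocalin-2 receptor, read 7.90 to 8.23 in WT and 8.19 to 8.24 in SPAK KO. It was called only in the fit without WT 1.

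In the Slco family, 2 members were called in opposite directions and 13 were not called. Over all genes 1.39% were called higher and 0.682% lower. At an unadjusted p under 0.05 limma had 4 of the 15 Slco members (26.7%), beside 19.1% of all genes. Slco3a1 and Slco1a6 had the brightest probe sets of the family and differed by −0.07 ± 0.07 and 0.10 ± 0.08. Without WT 1 these differences were −0.013 and 0.026. Slco1a6 read 10.95, 11.20, 11.28 and 11.30 in WT and 11.28, 11.29, 11.25 and 11.32 in SPAK KO, so that 3 WT arrays lay within or near the SPAK KO range. Slco2a1, the prostaglandin transporter, read 8.96, 8.77, 8.80 and 8.82 in WT and 8.99, 9.05, 8.99 and 9.01 in SPAK KO. The groups were apart by 0.0318, and the difference of 0.17 ± 0.05 did not pass (limma adjusted p = 0.126). Without WT 1 it passed (adjusted p = 0.0498), as it did with arrays centred on their median (0.0372). Slco2b1 differed by 0.04 ± 0.08, and by −0.025 without WT 1. Transporters known mainly from other organs were dim: Slco1b2 of the liver had a mean of 3.86 and Slco1c1 of the brain 4.48. Slco6c1 and Slco6d1 of the testis had means of 4.14 and 3.11. Slco6b1, which RefSeq lists as a long non-coding RNA and not as protein-coding, had a mean of 3.41. No background level comes with these values, so how far a dim signal lies above noise is unknown.

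The Abcc family had 10 members and 0 calls by limma, with 3 of the 10 at an unadjusted p under 0.05, beside 19.1% of all genes. Abcc2, the apical exporter MRP2, read 11.00, 11.25, 11.30 and 11.22 in WT and 11.23, 11.26, 11.25 and 11.22 in SPAK KO. The groups overlapped, the difference was 0.05 ± 0.07, and it became −0.016 without WT 1. Abcc4, the exporter MRP4 that also acts at the apical membrane, read 8.07, 8.28, 8.38 and 8.24 in WT and 8.61, 8.45, 8.48 and 8.36 in SPAK KO. Its highest WT array lay just above the lowest SPAK KO array, and the difference was 0.23 ± 0.08 (limma adjusted p = 0.151). Abcc1, the exporter MRP1, had groups that did not overlap, at 7.46 to 7.83 in WT and 7.90 to 7.97 in SPAK KO. The difference was 0.26 ± 0.08 (limma adjusted p = 0.129). Abcc9, a regulatory subunit of potassium channels in vascular smooth muscle, differed by 0.34 ± 0.10 (limma adjusted p = 0.112) and passed without WT 4 (0.0278). Abcc10 differed by −0.03 ± 0.05, and by 0.03 with centred arrays. The other 5, Abcc5, Abcc6, Abcc8, Abcc3 and Abcc12, lay between −0.09 and 0.04.

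**Figure D3:**
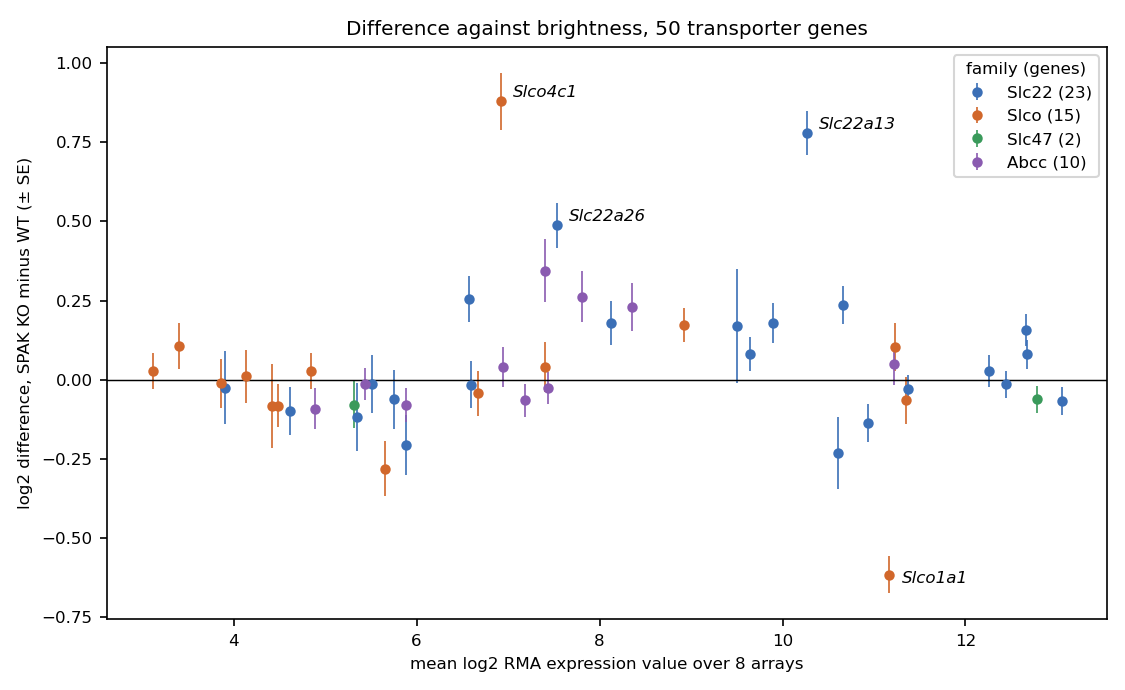
Log2 difference, SPAK KO minus WT, with its SE (y axis) against the mean log2 RMA expression value over 8 arrays (x axis) for the 50 members, coloured by family. The 4 called members, named in the plot, lie at 0.88, 0.78, 0.49 and −0.62; each other member lies between −0.28 and 0.34.

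The members were also set out by brightness, which orders probe sets by signal and not genes by amount of RNA. Of 15 members with a mean of 10 or more, 1 was called higher and 1 lower, against 1.78% and 1.06% of all such genes. Of 11 members between 6 and 8, 2 were called higher, against 1.82% of all genes in that range. Of the 6 members between 8 and 10 limma called 0, with 4 at an unadjusted p under 0.05, beside 21.2% of all genes in that range. Of the 18 below 6 limma called 0, with 1 at an unadjusted p under 0.05, beside 15.4% of all such genes, of which 0.277% were called higher and 0.517% lower. All 4 calls were thus among members with a mean of 6 or more. In all 9 members had groups that did not overlap with SPAK KO higher and 3 with SPAK KO lower, 18% and 6% of the members. Over all genes these shares were 6.9% and 5.71%. The 8 of these that were not called were Slc22a8, Slc22a19, Slc22a23, Slc22a13b, Slco2a1 and Abcc1, higher, and Slc22a2 and Slc47a1, lower.

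Many members stand next to each other in the genome, so the differences of neighbours are set side by side. By gene order in RefSeq, with at most 1 gene between members, 24 members fell into 6 runs. In the run of 3 around Slc22a13, the pseudogene Slc22a13b read 6.60, 6.47, 6.29 and 6.42 in WT and 6.62, 6.71, 6.82 and 6.64 in SPAK KO. That is a difference of 0.26 ± 0.07 (limma adjusted p = 0.109), beside 0.78 for Slc22a13 and −0.10 ± 0.08 for Slc22a14. With array weights Slc22a13b passed (adjusted p = 0.0474), as with centred arrays (0.0302).

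In the run of 7 that holds the organic anion transporter cluster, Slc22a26 at 0.49 stood beside Slc22a19 at 0.24, Slc22a27 at −0.03, Slc22a29 at −0.21 and Slc22a30 at −0.23, followed by Slc22a8 and Slc22a6. Slc22a30 read 11.02, 10.49, 10.54 and 10.83 in WT and 10.45, 10.37, 10.52 and 10.61 in SPAK KO. The groups overlapped, and the difference had an SE of 0.11 (limma adjusted p = 0.297). In the run of 6 Slco1 genes, Slco1a4, which also carries bile salts and steroid conjugates, read 5.89, 5.89, 5.82 and 5.59 in WT and 5.35, 5.54, 5.49 and 5.69 in SPAK KO. That is a difference of −0.28 ± 0.09 (limma adjusted p = 0.125), beside −0.62 for Slco1a1 and 0.10 for Slco1a6; it passed without WT 4. Slco1a5 differed by −0.08 ± 0.13. Close relatives within these runs have similar transcripts that could bind the same probes, and their part in the values was not tested.

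Slco4c1 lies beside Slco6b1 and Slco6c1, which differed by 0.11 ± 0.07 and 0.01 ± 0.08. Neither was called, and both were dim, at means of 3.41 and 4.14.

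Of 27 other genes that supply, anchor, regulate or complement these transporters, 23 were measured. Limma called 5 of them higher and 0 lower, while 1.39% of all genes were called higher and 0.682% lower. At an unadjusted p under 0.05 limma had 7 higher and 2 lower, beside 19.1% of all genes in both directions together. The drug efflux pump genes Abcb1a and Abcb1b both rose. Abcb1a read 6.12, 6.22, 6.32 and 6.01 in WT and 6.75, 6.53, 6.55 and 6.81 in SPAK KO, a difference of 0.49 ± 0.09 (limma adjusted p = 0.0195). Abcb1b read 4.87, 5.17, 5.36 and 5.51 in WT and 6.25, 5.83, 5.88 and 5.86 in SPAK KO, a difference of 0.73 ± 0.14 (limma adjusted p = 0.0251). Neither overlapped between groups, but they passed in only 5 and 3 of the 8 leave-one-out fits, and as near copies of each other they may share signal. Slc2a9, the basolateral urate transporter, rose by 0.51 ± 0.09 (limma adjusted p = 0.0231), in 2 of those 8.

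Slc13a2, the apical sodium-dicarboxylate cotransporter, was higher by 0.51 ± 0.06 (limma adjusted p = 0.0036). Its basolateral relative Slc13a3, which supplies the dicarboxylate that OAT1 and OAT3 exchange, read 12.65, 12.53, 12.52 and 12.71 in WT and 12.89, 12.84, 12.85 and 12.83 in SPAK KO. The groups did not overlap, and the difference of 0.25 ± 0.06 just missed the threshold (limma adjusted p = 0.0520). Ppara, a nuclear receptor that drives genes of fatty acid use, rose by 0.33 ± 0.05 (limma adjusted p = 0.0113). The 18 genes not called included the efflux pump gene Abcg2 (0.02 ± 0.05), the phosphate and urate transporter genes Slc17a1 (−0.02 ± 0.05) and Slc17a3 (−0.10 ± 0.05) and the scaffold gene Pdzk1 (0.06 ± 0.05). They also included the factors Hnf4a (−0.08 ± 0.04) and Nfe2l2 (0.17 ± 0.06). Slc51a, a subunit of the basolateral steroid and bile salt exporter, had the lowest value of the list, −0.53 ± 0.15 (limma adjusted p = 0.0978), and passed in 1 of 8 leave-one-out fits.

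**Figure D4:**
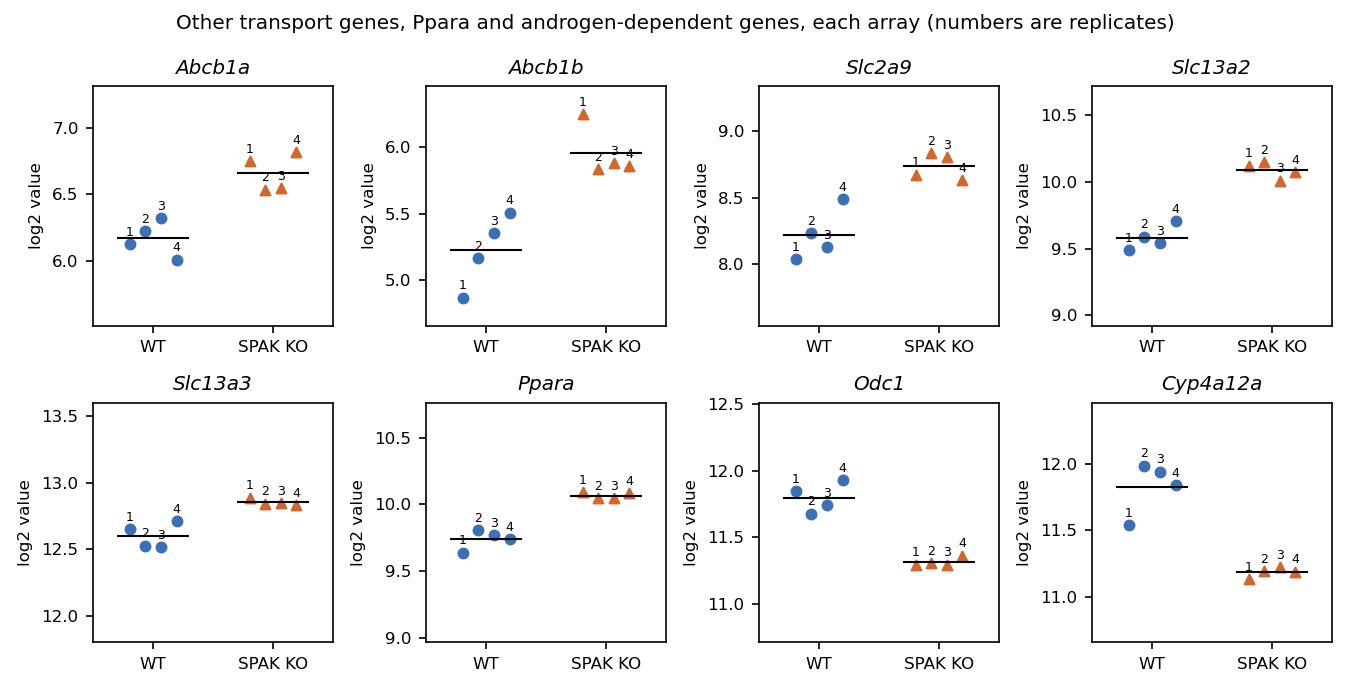
Log2 RMA expression value (y axis, with the same span in all panels) by genotype on each array for 6 partner genes and for Odc1 and Cyp4a12a, with replicate numbers and black lines at the mean of 4 arrays. The first 6 are higher on every SPAK KO array, Slc13a3 among them without passing the test, and Odc1 and Cyp4a12a are lower on every SPAK KO array.

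Over all genes limma called 1.39% higher and 0.682% lower, and 19.1% had an unadjusted p under 0.05. Markers measured beside the members gave the following. Of 7 markers of the proximal convoluted tubule, 0 were called by limma and 1 had an unadjusted p under 0.05; their differences lay between −0.17 and 0.07. Of 6 markers of the proximal straight tubule, Napsa was called higher, by 0.54 ± 0.10 and in 2 of 8 leave-one-out fits. Of the 6 differences 4 were above 0. Atp11a, whose groups did not overlap, and Slc5a1 were lower, at −0.21 ± 0.06 (limma adjusted p = 0.0854) and −0.21 ± 0.16. The mean of those 6 was 11.49 to 11.61 in WT and 11.62 to 11.65 in SPAK KO. Of 4 intercalated cell markers 3 were higher, and Slc4a1 differed by −0.15 ± 0.11. The mean of the 4 was 9.31 to 9.53 in WT and 9.77 to 9.84 in SPAK KO. Of 3 thick ascending limb markers 1 was higher, with means of 10.94 to 10.99 and 11.16 to 11.22, and of 3 distal convoluted tubule markers 2 were lower, with means of 9.49 to 9.60 and 8.82 to 8.90. Of 3 principal cell markers Aqp2 was called lower, at −0.29 ± 0.06 and in 1 of 8 leave-one-out fits. Aqp3 went the other way, at 0.23 ± 0.06, with groups that did not overlap (limma adjusted p = 0.0761), and Fxyd4 differed by 0.06 ± 0.07. The mean of the 3 was 8.894 to 9.002 in WT and 8.916 to 8.991 in SPAK KO. Of 4 immune cell markers Cd3e was called lower, at −0.31 ± 0.06 and in 1 of 8 leave-one-out fits. The mean of the 4 was 7.23 to 7.28 in WT and 7.11 to 7.26 in SPAK KO. The fat marker Retn differed by 0.31 ± 0.07 and was called. It was dim, at a mean of 5.84, and passed in 0 of 8 leave-one-out fits. All 3 markers of perirenal fat were higher at an unadjusted limma p under 0.05. Their mean was 6.12 to 6.34 in WT and 6.43 to 6.52 in SPAK KO. Of 3 measured liver markers limma called 0, with 2 at an unadjusted p under 0.05, Alb (0.55 ± 0.13) and Ttr (0.46 ± 0.13), and the mean was 8.70 to 9.04 in WT and 9.16 to 9.19 in SPAK KO. Of 3 measured podocyte markers limma again called 0, with 2 at an unadjusted p under 0.05 and means of 8.31 to 8.37 and 8.39 to 8.52. Of 5 endothelial markers 0 were called, with 1 at an unadjusted p under 0.05 and means of 9.39 to 9.46 and 9.36 to 9.45. The part of these cell types in the member differences was not tested. Of 5 genes that depend on androgen in mouse kidney, as Slco1a1 does, 2 were lower: Odc1, an enzyme of polyamine synthesis, at −0.48 ± 0.06, and Cyp4a12a, a fatty acid hydroxylase, at −0.64 ± 0.09. Kap, an abundant androgen-dependent gene, differed by 0.02 ± 0.05, and Cyp4b1 and Cyp7b1 by −0.06 ± 0.05 and 0.15 ± 0.11. The mean of the 5 was 12.00 to 12.09 in WT and 11.82 to 11.85 in SPAK KO. Their part in the Slco1a1 difference was not tested.

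**Figure D5:**
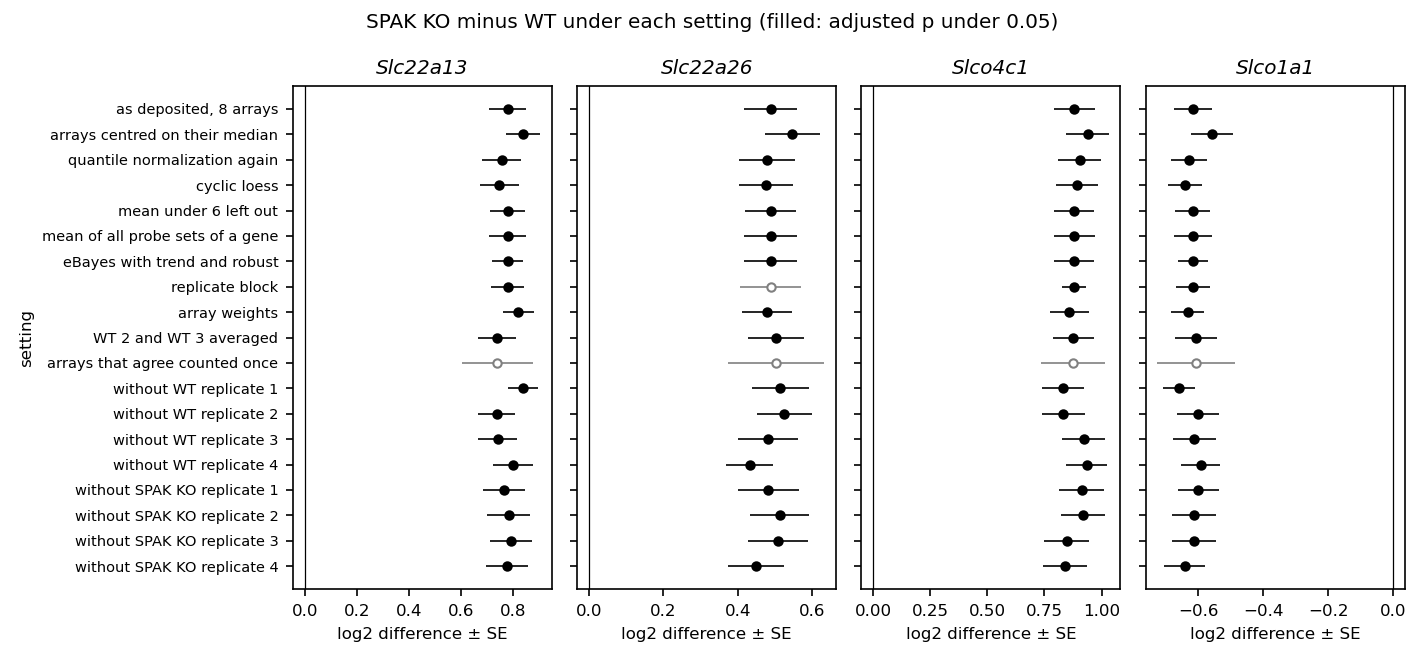
Log2 difference, SPAK KO minus WT, with its SE (x axis) for the 4 called members under each setting (y axis); filled points have an adjusted p under 0.05. Slc22a13 stays between 0.74 and 0.84, Slc22a26 between 0.43 and 0.55, Slco4c1 between 0.83 and 0.94 and Slco1a1 between −0.66 and −0.56.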

How the data were processed

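The deposited table holds log2 expression values of 35556 probe sets on 8 arrays, computed by the authors. Per the submitters' processing notes, Affymetrix Expression Console and its RMA method were used. RMA corrects background, gives the arrays a common distribution and combines each probe set's probes, which narrows differences between arrays. Software version and genome build are not given in the sources used here. Over all probe sets, the array medians were 6.13 to 6.19 in WT and 6.09 to 6.12 in SPAK KO.

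Gene names came from the annotation of the platform: 21789 had 1 symbol, 1621 several and 12146 none, and only the first kind was used. The probe set with the highest mean stood for each of 19938 genes, and all 50 member symbols matched RefSeq by gene ID. Genotype was the only term in limma 3.58.1 (R 4.3.3, lmFit, eBayes) over 8 arrays, with Benjamini-Hochberg adjustment over all genes. The code was tested on simulated data with independent noise on each array, so that test does not cover arrays that agree closely. The number of separate RNA samples limits the precision. Genes described singly were the called members, the 8, 5, 2 and 5 brightest of Slc22, Slco, Slc47 and Abcc, and up to 4 more per family whose groups did not overlap, with any other chosen after its values were seen. The members and lists were chosen with earlier results of these data known. Alternatives were 18 settings. Promoter windows came from RefSeq (GRCm38.p6).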

Additional observations from a re-analysis of the deposited data

Results flagged for a closer look

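A single array stood far from the other 3 of its genotype for 3 of the 25 members described singly, out of 50 groups of 4 examined; chance alone gives about 1 such gap in 20 groups. Slc22a12 read 12.36 on WT 1 against 12.20 to 12.22 on the other WT arrays. Slc22a5 read 10.91 on SPAK KO 2 against 10.85 on each of the others. Slc22a19 read 10.41 on WT 4 against 10.58 to 10.60 on the other WT arrays. None of these 3 genes was called over all 8 arrays.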

How the results depend on the processing

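The 4 called members kept their direction in all 18 settings. Slc22a13, Slco4c1 and Slco1a1 passed in 17 of them and Slc22a26 in 16. With arrays that agree counted once, 0 members and 0 genes were called in either direction; that fit holds 1 SPAK KO sample, assumed to vary like WT. Centring arrays on their median gave 6 members higher and 673 genes higher and 88 lower; trend and robust moderation gave 5 members higher and 526 genes higher and 241 lower. The causes of these shifts were not tested. Genes called were 462 higher with means under 6 left out (fewer genes tested), 218 lower with array weights, and 175 higher and 78 lower with WT 2 and WT 3 averaged. Leaving out 1 array gave 3 to 5 members higher and 1 to 2 lower (5 higher without WT 1, which added Slc22a17 and Slco2a1; 4 higher and 2 lower without WT 4), with 106 to 407 genes higher and 50 to 218 lower; 407 and 218 were without WT 4, and 106 and 50 without SPAK KO 1. Among the 25 members described singly by rule, signs turned, with no test passed, for Slc22a6 (0.0440), Slc22a22 (0.0296) and Abcc10 (0.0319) with centred arrays, and for Slco2b1 and Abcc2 without WT 1; leaving out 1 array gave −0.0246 to 0.1003 for Slco2b1 and −0.0160 to 0.0843 for Abcc2. Over all 50 members, leaving out 1 array turned the sign of 12, all with differences within 0.084 of 0, and 6 of them turned without WT 1. Averaging all probe sets of a gene left the members' differences as they were, since each has 1.

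Same-numbered samples share only a number: their deviations correlated at 0.07, 0.10, −0.07 and 0.19 for numbers 1 to 4, and not every sample correlated best with its own number. With the replicate number as a block, 2 members were higher and 1 lower, with 129 genes higher and 45 lower; Slc22a26 then had a limma adjusted p of 0.0512.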
